A study of Mus musculus with 176 samples.

Results

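The 8 TNF superfamily ligands described here are Tnfsf8 (CD30 ligand), Tnfsf11 (RANKL), Tnfsf14 (LIGHT), Cd40lg (CD40 ligand), Fasl (Fas ligand), Tnf, Lta (lymphotoxin alpha) and Ltb (lymphotoxin beta). They were chosen by gene name and were 8 of 53546 names in the count table. The cells were CD4 T cells of female C57BL/6J mice, an inbred strain, that were 7 weeks old when first immunized with the peptide P6 of apolipoprotein B in complete Freund's adjuvant. A boost in incomplete Freund's adjuvant followed at week 2, and inguinal and para-aortic lymph nodes, which drain the sites, were taken at week 4, when the mice were 11 weeks old. Single TCRb+ CD4+ cells with high CD44 and without CD62L, the antigen-experienced cells, were sorted as P6+ or P6- cells. P6+ cells bound a tetramer of I-Ab loaded with P6, and P6- cells did not. Cells of an unimmunized mouse were not analysed here, so no comparison concerns immunization itself.

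Of 176 cells, 161 passed the quality limits of 500000 reads, 2000 genes and 10% mitochondrial reads: all 32 P6+ cells and all but 15 of the P6- cells. The study also set a limit on the mapping rate, which was not applied here, and its set of P6- cells was smaller. The P6+ cells were from 1 mouse, and the labels tie no cell to an animal. Each group was therefore treated as 1 sample, and groups are compared by their values without a test. Within the P6+ cells, 16 had 10 or more reads of Trbv13-2, a variable segment of the T cell receptor beta chain, and 16 had fewer. They are called Trbv13-2 high and Trbv13-2 low. The values just inside and just outside this limit were 48 reads and 1 read, so no P6+ cell lay near it. Among the P6- cells, 26 were Trbv13-2 high and the others low, and the nearest values were 14 and 9 reads. The paper reports clonal expansion among the tetramer-binding cells, with the variable segment used for this split in their most common beta chain. Clones were not determined here, so many Trbv13-2 high P6+ cells may belong to the same clone. The intervals of shares count each cell as independent and do not allow for this.

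A P6+ cell had between 956280 and 3332191 reads on genes (median 1731608), and a passing P6- cell between 522188 and 3401373 (median 1500457). All P6+ cells carried the cell-name prefix P6 and were read in lane 2, together with 11 passing P6- cells. The remaining P6- cells bore 7 other prefixes over 2 lanes, so the tetramer sign and the prefix cannot be told apart except against those 11 cells. Genes of the CD4 T cell list (Cd3d, Cd3e, Cd3g, Cd4, Trac, Trbc1, Trbc2 and Cd44) reached 10 reads in all 32 P6+ cells and in all but 5 of the P6- cells. The 6 myeloid and dendritic genes summed to 0.0337 and 0.0441 cpm (reads per 1000000 reads counted on genes) in the pooled groups, and 0 cells reached 10 reads of any of them. Of 4 CD8 T and NK cell genes, all were at 0 in P6+ cells, and in P6- cells Cd8b1 reached 10 reads in 2 cells (12.06 cpm pooled), neither of which had 10 reads of Fasl.

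Ligands of this family are membrane proteins that assemble as trimers and signal through TNF receptors on a neighbouring cell, either from the surface or after they have been shed. Activated CD4 T cells use them to deliver help to B cells and dendritic cells (CD40 ligand), to kill or to limit activated cells (Fas ligand), to activate macrophages (TNF) and to maintain lymphoid tissue (lymphotoxins). Many are induced for a short time after the T cell receptor is engaged, through NFAT and NF-kappaB.

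The upstream sequences of 3 members are shown because these genes span the range found in the cells: Ltb was the ligand detected in most cells, Tnfsf8 was present in one Trbv13-2 group of P6+ cells and absent from the other at 100 reads, and Tnf, a neighbour of Ltb on chromosome 17, was nearly absent. Each is the stretch before the RefSeq start on GRCm38.p6, at most 250 bases, 5′ to 3′ on the strand of the gene, and ends where the annotated gene begins. Tnfsf8 is from chr4:63861348-63861534 (minus strand), Ltb from chr17:35194257-35194438 (plus strand) and Tnf from chr17:35202008-35202257 (minus strand).
Tnfsf8: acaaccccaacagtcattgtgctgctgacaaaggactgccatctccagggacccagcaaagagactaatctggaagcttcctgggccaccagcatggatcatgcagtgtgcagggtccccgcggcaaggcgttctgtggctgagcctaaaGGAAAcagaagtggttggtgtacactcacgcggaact
Ltb: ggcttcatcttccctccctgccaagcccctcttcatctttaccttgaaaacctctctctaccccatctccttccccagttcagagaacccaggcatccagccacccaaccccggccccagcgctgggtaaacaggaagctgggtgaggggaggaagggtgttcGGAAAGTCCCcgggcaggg
Tnf: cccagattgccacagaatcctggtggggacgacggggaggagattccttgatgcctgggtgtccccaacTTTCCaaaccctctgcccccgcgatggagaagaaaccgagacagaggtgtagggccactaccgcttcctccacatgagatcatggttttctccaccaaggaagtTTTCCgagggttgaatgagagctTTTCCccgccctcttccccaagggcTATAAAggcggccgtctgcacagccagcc
Capitals mark matches, on either strand, to TATAAA, to GGAAA (the core letters that NFAT proteins bind; TTTCC on the other strand) and to the NF-kappaB consensus. The Ltb stretch held 1 NF-kappaB match, which overlaps its 1 GGAAA match. Tnfsf8 held 1 GGAAA match, and Tnf held 3 together with 1 TATAAA. Among 32841 promoters of the same RefSeq table, windows of 250 bases held TATAAA in 12.4%, GGAAA in 55.6% and the NF-kappaB consensus in 7.25%. These matches describe the letters and show no binding.

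Only Ltb and Tnfsf8 were found in a large share of cells. At 100 or more reads, Ltb was detected in 24 P6+ cells (75%) and 65 P6- cells (50.4%), and Tnfsf8 in 8 (25%) and 39 (30.2%). At 10 or more reads, the counts were 25 (78.1%) and 69 (53.5%) for Ltb and 11 (34.4%) and 57 (44.2%) for Tnfsf8. Thinned to 500000 reads per cell, 25 P6+ (78.1%) and 71 P6- cells (55.04%) held 5 or more reads of Ltb, and 8 (25%) and 54 (41.9%) of Tnfsf8. The other ligands reached 100 reads in 0 to 2 P6+ cells and in 0 to 18 P6- cells. Tnfsf14 had 0 reads in all 161 cells, which allows a level of up to 0.0506 cpm in P6+ and 0.0147 cpm in P6- cells. The limit of 100 reads is given because most cells held a few reads of Tnfsf8 (1 to 9 reads in 21 P6+ and 70 P6- cells), so that 10 reads fell inside this low range.

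**Figure D1:**
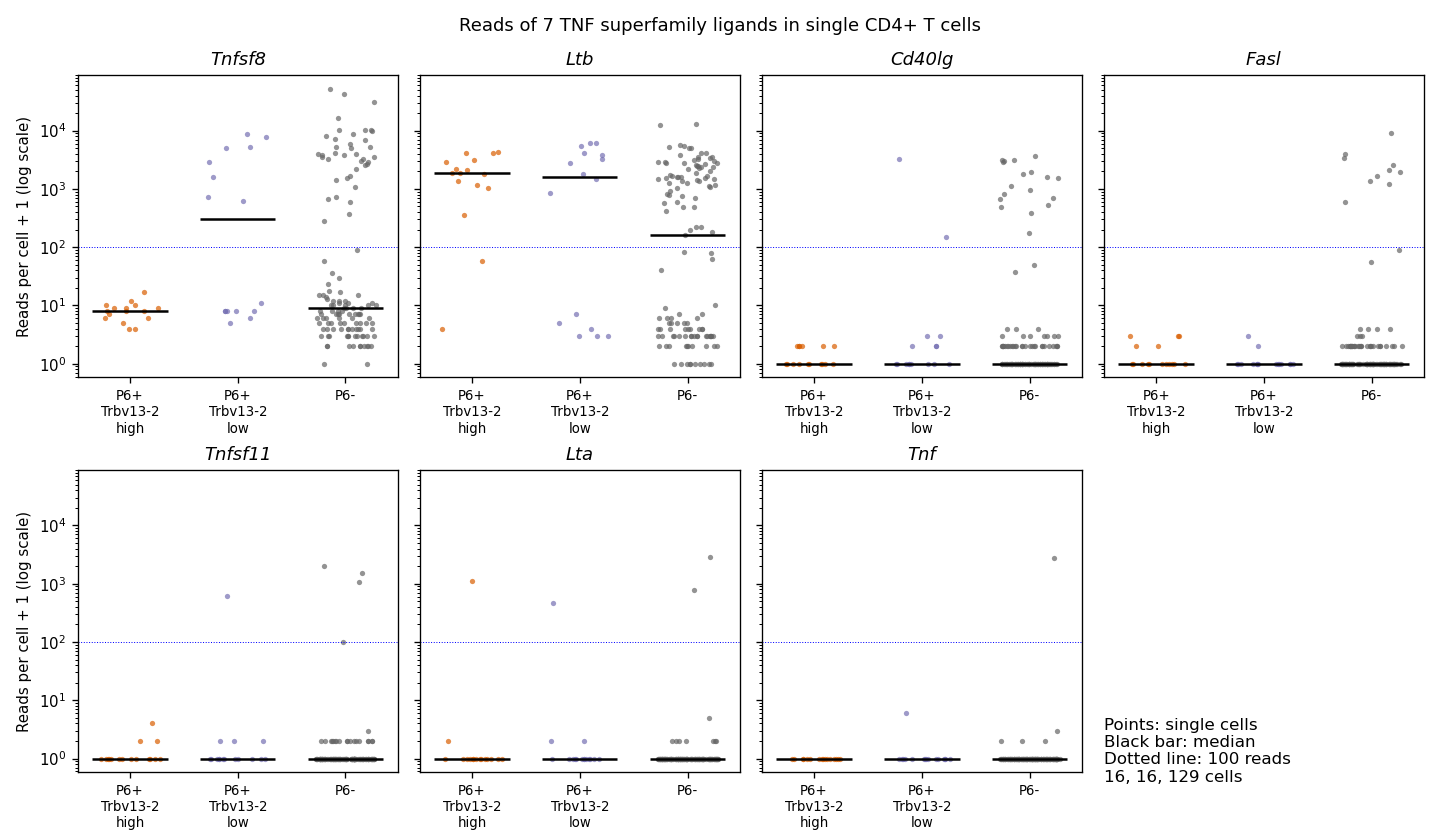
Reads per cell plus 1 (log axis) of 7 ligands in 16 P6+ Trbv13-2 high, 16 P6+ Trbv13-2 low and all passing P6- cells, with each point a cell, black bars the medians and the dotted line at 100 reads. Tnfsf8 forms an upper and a lower cloud in Trbv13-2 low and P6- cells and a lower cloud alone, at 3 to 16 reads, in Trbv13-2 high cells.

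Tnfsf8 encodes CD30 ligand, which binds CD30 (Tnfrsf8) on activated lymphocytes. The gene lies at chr4:63831308-63861347 on the minus strand of GRCm38. Its level per P6+ cell ranged from 1.27 to 5562 cpm with a median of 4.83 cpm, and per P6- cell from 0 to 21798 cpm with a median of 5.54 cpm. The ranges overlapped, and a minority of cells held nearly all of the reads: cells under 100 reads gave 0.259% of them in lane 1 and 0.269% in lane 2. Pooled over cells, Tnfsf8 was at 549.9 cpm in P6+ cells (95% exact Poisson interval 544 to 556) and at 1427 cpm in P6- cells (1422 to 1432). This was 2.596-fold lower in P6+ cells. Such intervals hold counting error alone, because PCR copies were not told apart by molecular identifiers. The share of cells at 100 reads was 25% (exact binomial interval 11.5 to 43.4%) in P6+ and 30.2% (22.5 to 38.94%) in P6- cells, so the lower pooled level stood beside shares whose intervals overlapped. Among the cells at 100 reads, the median was 1591 cpm in P6+ and 2554 cpm in P6- cells. A single P6- cell with 52736 reads gave 18.1% of the P6- reads, and without it the P6- level was 1187 cpm.

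Within the P6+ cells Tnfsf8 was carried by Trbv13-2 low cells. The 16 Trbv13-2 high cells held 3 to 16 reads each, 1.27 to 7.32 cpm with a median of 4.29 cpm. Among the 16 low cells, 8 held 608, 712, 1592, 2952, 4980, 5206, 7812 and 8602 reads, and the other 8 held 4 to 10 reads. The upper 8 cells lay above every Trbv13-2 high cell, and the lower 8 lay within their range. In shares, 8 of 16 low cells (50%, 24.7 to 75.3%) reached 100 reads, and 0 of 16 high cells did. If cells are independent, the count of 0 allows a share of up to 18.8% (exact interval up to 20.6%). Cells of the same clone would not be independent, so the difference may be a trait of a clone. This was not tested. The pooled level was 3.84 cpm (3.17 to 4.61) in high and 1116 cpm (1104 to 1128) in low cells, and leaving out the cell with the most reads in each group gave 3.72 and 892.8 cpm. The level of the low cells differed from that of all P6- cells (1427 cpm) by a log2 ratio of -0.35.

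The same split of the P6- cells gave a smaller difference. Tnfsf8 reached 100 reads in 6 of 26 Trbv13-2 high cells (23.1%, 8.97 to 43.6%) and in 33 low cells (32.04%, 23.2 to 41.96%). The pooled levels were 612.9 and 1649 cpm, a log2 ratio of -1.43 against -7.85 among P6+ cells. Whether the ratios differ between P6+ and P6- cells was not tested.

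**Figure D2:**
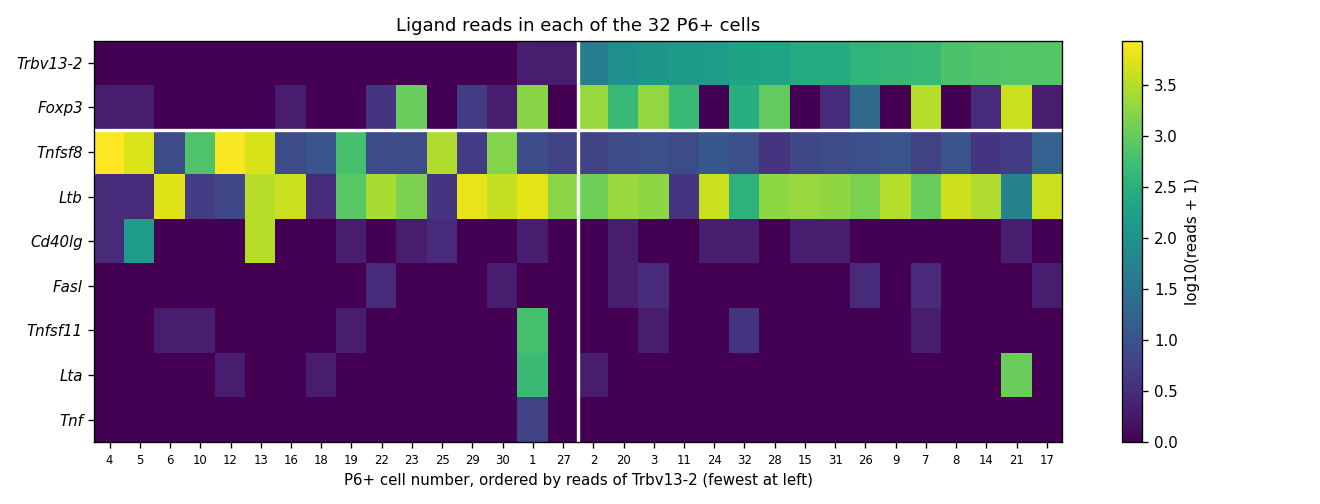
Reads of Trbv13-2, Foxp3 and 7 ligands in each of the 32 P6+ cells, as log10(reads + 1) by colour, with cells ordered by reads of Trbv13-2 from left to right and a white line at the limit of 10 reads. The 8 cells with 608 or more Tnfsf8 reads all lie to the left of the line, while Ltb is bright on both sides.

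Across cell-name prefixes, Tnfsf8 in P6- cells ranged from 522.7 to 2044 cpm, and 6 of 8 prefixes lay above the P6+ level. The 11 P6- cells of the prefix of the P6+ cells were at 1652 cpm, with 6 of 11 (54.5%, 23.4 to 83.3%) at 100 reads. Thus P6+ cells were 3.004-fold below the P6- cells of their own prefix, and the direction was that of the whole comparison. These 11 cells were all Trbv13-2 low, with at most 2 reads of it. Beside their 1652 cpm, the Trbv13-2 low P6+ cells alone were at 1116 cpm, a smaller difference.

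Ltb encodes lymphotoxin beta, the membrane anchor of the lymphotoxin heterotrimer that signals through the lymphotoxin beta receptor on stromal and myeloid cells. It is at chr17:35194439-35196320 on the plus strand. Per P6+ cell, Ltb ranged from 0.851 to 5460 cpm with a median of 1141 cpm, and per P6- cell from 0 to 9899 cpm with a median of 99.6 cpm. The ranges overlapped, with the lower cells in both groups near 0. The pooled level was 1151 cpm (1143 to 1160) in P6+ and 763.8 cpm (760 to 767.6) in P6- cells, 1.51-fold higher in P6+ cells and under the 2-fold limit used here. The share at 100 reads was 75% (56.6 to 88.5%) in P6+ and 50.4% (41.5 to 59.3%) in P6- cells. Among cells at 100 reads the medians were 1477 and 1079 cpm.

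Ltb did not follow the Trbv13-2 split as Tnfsf8 did. It reached 100 reads in 14 of 16 high cells (87.5%, 61.7 to 98.4%) and in 10 of 16 low cells (62.5%, 35.4 to 84.8%), and the intervals overlapped. The pooled levels were 1077 cpm in high and 1229 cpm in low cells. A log2 ratio of -0.19 was within the 2-fold limit. Among P6- cells, the split gave 1059 and 683.4 cpm, a log2 ratio of 0.63.

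The Ltb level of P6+ cells was above that of P6- cells of each of the 8 prefixes, which ranged from 103.8 to 1012 cpm. The P6- cells with the P6+ prefix were lowest, at 103.8 cpm, with 3 of 11 cells (27.3%, 6.02 to 60.97%) at 100 reads, and 1 of them gave 77.5% of their Ltb reads. Against these 11 cells, Ltb was 11.1-fold higher in P6+ cells. These 11 cells stood apart beyond Ltb: the median log2 ratio of P6+ over them, over 8140 genes, was 1.28, against -0.18 over 9076 genes for all P6- cells. The log2 ratio of Ltb was 3.46 there, above that median.

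**Figure D3:**
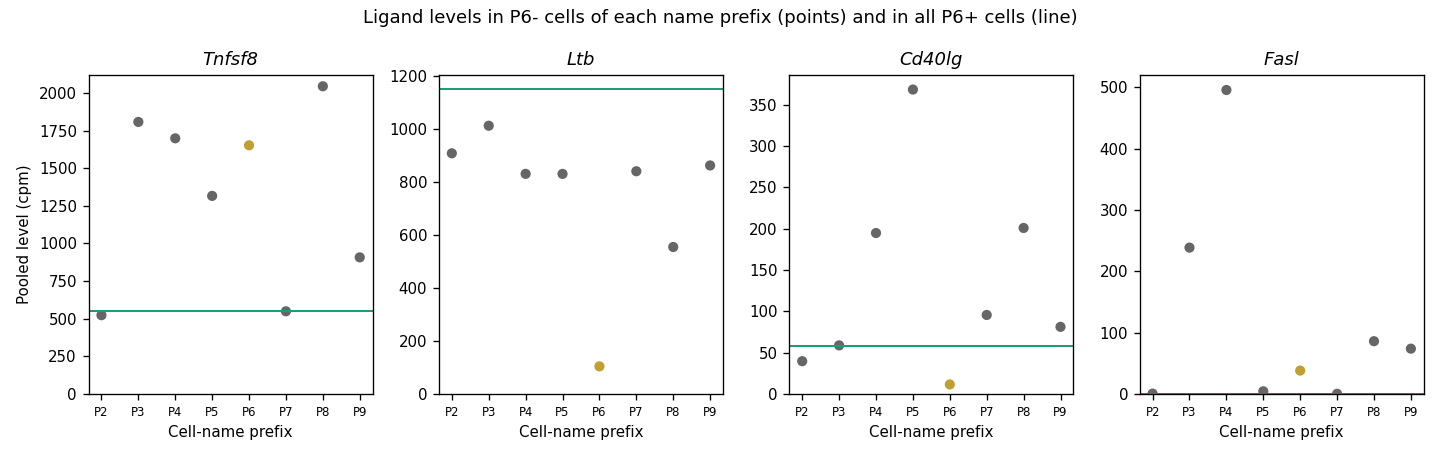
Pooled level in cpm of Tnfsf8, Ltb, Cd40lg and Fasl in P6- cells of each of 8 cell-name prefixes (points; the prefix shared with the P6+ cells in yellow) and in all 32 P6+ cells (line). The line lies above all points for Ltb, at 1151 cpm, and near 0 for Fasl.

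Lta and Tnf flank one another beside Ltb in the major histocompatibility complex, at chr17:35203165-35205351 and chr17:35199381-35202007, both on the minus strand. From Ltb to Lta the 3 genes span 10913 bases, and 1157 bases separate Tnf from Lta. Lta supplies the other subunit of the membrane lymphotoxin and is also secreted as a homotrimer, and TNF is the inflammatory cytokine that gave the family its name. Neither shared the wide detection of their neighbour. Lta reached 100 reads in 2 of 32 P6+ cells, with 473 and 1093 reads, and in 2 P6- cells, the higher with 2927 reads. One of the P6+ cells was Trbv13-2 low and the other high. Pooled, Lta was at 26.4 cpm in P6+ and 18.2 cpm in P6- cells, and without the cell with the most reads in each group at 8.47 and 3.86 cpm. Each level was therefore the level of 1 or 2 cells. Tnf had 5 reads in 1 P6+ cell and 0 in the other 31. In P6- cells, 1 cell held 2734 of 2739 reads. Without that cell, Tnf in P6- cells was at 0.0248 cpm instead of 13.4 cpm, so its lower pooled level in P6+ cells rested on a single cell.

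Cd40lg, on the X chromosome (chrX:57212143-57224042, plus strand), encodes the signal by which helper T cells activate CD40 on B cells and dendritic cells. Of P6+ cells, 2 of 32 (6.25%, 0.766 to 20.8%) held 100 or more reads, 146 in one and 3243 in the other, and the next highest cell held 2 reads. Of P6- cells, 18 (13.95%, 8.48 to 21.2%) did, with 105.1 to 4533 cpm among them. Its share of P6+ cells was below that of P6- cells of each of the 8 prefixes (8.33 to 25%), and its interval contained 7 of those 8 values. Pooled, Cd40lg was at 57.3 cpm (55.4 to 59.3) in P6+ and 140.1 cpm (138.4 to 141.7) in P6- cells, and 95.3% of the P6+ reads were from 1 cell. Without the cell with the most reads in each group the levels were 2.81 and 123.6 cpm. Both P6+ cells with Cd40lg were Trbv13-2 low and both held Tnfsf8 at 100 reads. High cells held 0 or 1 read. Among the P6- cells of the P6+ prefix, 1 of 11 held Cd40lg, at 11.4 cpm pooled, so that P6+ cells were 5.03-fold higher there and the direction turned. Among P6- cells, the split also went the opposite way, with 5 of 26 high cells (19.2%, 6.555 to 39.4%) and 13 low cells (12.6%, 6.89 to 20.6%) at 100 reads, where the intervals overlapped.

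Fasl, at chr1:161780689-161788495 on the minus strand, encodes the ligand that triggers apoptosis through Fas. P6+ cells held 11 reads in all, at most 2 in a cell, which was 0.185 cpm (0.0925 to 0.332). P6- cells held 28059 reads, 137.6 cpm (136.01 to 139.2), in which 10 cells (7.75%, 3.78 to 13.8%) had 100 or more reads at 556.3 to 4852 cpm. The pooled level was 742-fold lower in P6+ cells (counting interval 415 to 1487). In shares, 0 of 32 P6+ cells allow up to 9.38% by counting error, above the 7.75% of P6- cells. The shares of these cells therefore do not set the groups apart. By prefix, P6- cells ranged from 0.103 to 495.5 cpm, and 7 of 8 prefixes lay above the P6+ level. In 3 of the 8 prefixes, 0 cells reached 100 reads, and in the P6+ prefix 1 of 11 did, with 99.8% of the Fasl reads of that prefix. With the P6- cell with the most Fasl reads left out, the P6- level was 94.01 cpm.

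Tnfsf11, at chr14:78277445-78308043 on the minus strand, encodes RANKL, which activates RANK on osteoclast precursors and dendritic cells. It reached 100 reads in 1 of 32 P6+ cells, with 610 of the 618 reads of the group, and in 3 P6- cells. Pooled levels were 10.4 and 23.2 cpm, and 0.137 and 13.2 cpm without the cell with the most reads in each group. Its direction turned with the cells compared: the P6- cells of the P6+ prefix held 3 reads, a ratio of P6+ over these of 53.6 with a counting interval of 18.3 to 261. This too rested on the 1 P6+ cell, as without the cell with the most reads in each group the levels were 0.137 and 0.145 cpm.

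**Figure D4:**
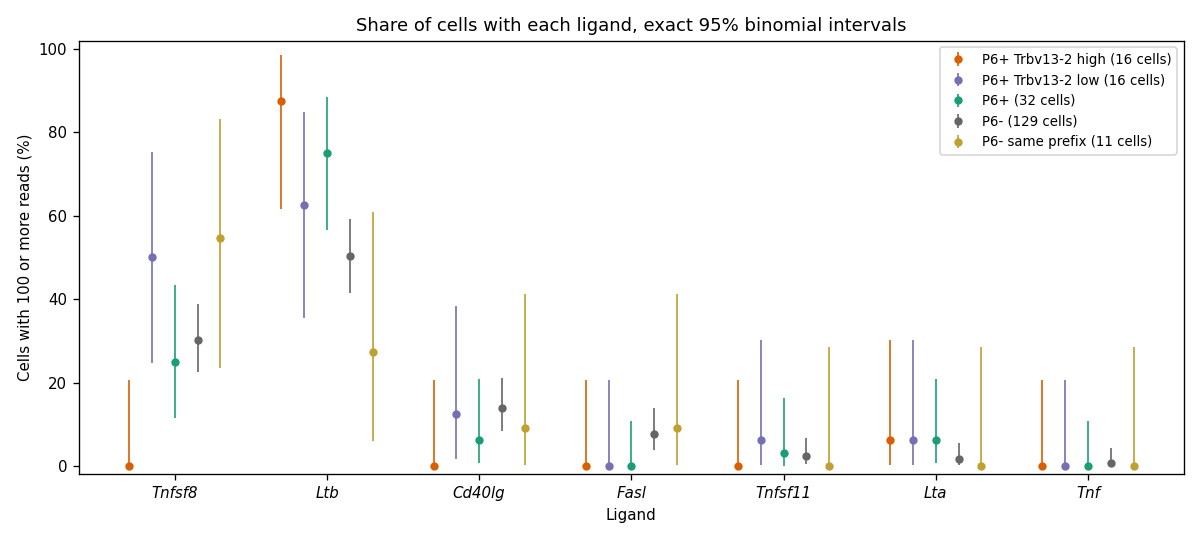
Percent of cells with 100 or more reads of each of 7 ligands in 5 sets of cells, with points at the share and bars the exact 95% binomial intervals. For Tnfsf8, Trbv13-2 high cells are at 0% and low cells at 50%, and for the other ligands the bars of high and low cells overlap.

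Counted over the members, 7 of 8 had at least 5 cpm over the pooled cells of both groups, and 5 were 2-fold or more lower in P6+ than in P6- cells on a scale of cpm + 1: Tnfsf8 (log2 ratio -1.37), Tnfsf11 (-1.08), Cd40lg (-1.27), Fasl (-6.87) and Tnf (-3.73). None was higher, and Lta (0.52) and Ltb (0.59) were within 2-fold. Of 9076 genes tested in the same way, 32.6% were lower and 20.9% higher by 2-fold or more, and 53.5% in either direction. The median over the 7 members was -1.27, beside -0.18 over all genes. Without the cell with the most reads in each group, 4 ligands were lower. Against the same P6- cells, Trbv13-2 low P6+ cells alone had 2 of 7 members lower (Fasl and Tnf) and 5 within 2-fold. Trbv13-2 high P6+ cells had 5 lower and 2 within. The median log2 ratio over all genes was -0.57 for low and -0.56 for high cells. The groups also differed in other measures: the median number of genes with a read was 4396 in P6+ and 3432 in P6- cells, and the highest mitochondrial share was 2.82% and 9.46%. Cycling genes summed to 208.6 cpm in P6+ and 68.03 cpm in P6- cells, type 1 helper genes to 758.8 and 183.7 cpm (Cxcr3 higher, Ifng lower and Tbx21 within 2-fold), regulatory genes to 1711 and 977.3 cpm (Ikzf2 higher, the others within 2-fold) and follicular helper genes to 494.4 and 834.7 cpm (Pdcd1 lower, Il21 under the minimum, the others within 2-fold). Ccr7 and Lef1, which mark naive T cells, were lower in P6+ cells, at 823.3 and 2612 cpm for Ccr7 and at 11.7 and 269.9 cpm for Lef1. The B cell genes summed to 1045 and 547.9 cpm (Cd79b higher, Ighm within 2-fold, the others under the minimum). The part of all these genes in the ligand levels was not tested. Against the 57 P6- cells of the lane of the P6+ cells, a set chosen after seeing the data, 4 members were lower (Tnfsf8, Cd40lg, Fasl and Tnf), Tnfsf11 was within 2-fold (-0.06) and Lta was higher (1.62), with 98.8% of its reads in these P6- cells from 1 cell. Over all genes there, 29.1% were lower, 27.7% higher and 56.9% either. Against the 11 P6- cells of the same prefix, 6 members passed the minimum, of which 4 were higher (Tnfsf11, Cd40lg, Lta and Ltb) and 2 lower (Tnfsf8 and Fasl). There 52.7% of genes were higher, 21.5% lower and 74.2% either. Tnfsf8 and Fasl were lower by 2-fold or more in both comparisons, but 99.8% of the Fasl reads of the 11 cells were from 1 cell. Without the cell with the most reads in each group, Fasl was at 0.156 cpm in P6+ and 0.0695 cpm in these cells.

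For the Trbv13-2 split of P6+ cells, 5 members passed the minimum, and 3 were lower in high cells: Tnfsf8 (-7.85), Cd40lg (-6.62) and Tnfsf11 (-4.24). Lta was higher (1.10), and Ltb was within 2-fold. Of 7794 genes, 33% were lower, 34.5% higher and 67.5% either, so a 2-fold difference was common over all genes. The median over the 5 members was -4.24, beside 0.01 over all genes. Leaving out the cell with the most reads in each group left Tnfsf8 (-7.56) and Cd40lg (-2.53) lower and brought Lta to -0.05. For Cd40lg, 1 cell held 95.5% of the reads of the low cells. For Tnfsf11, 1 low cell held 610 of the 613 reads of the low cells. For Lta, 1 cell in each group held nearly all reads, 1093 in the high and 473 in the low cell. Among P6- cells the split gave 3 higher (Tnfsf11, Cd40lg and Fasl) and 3 lower (Tnfsf8, Tnf and Lta) of 7, where 20% of the 8800 genes were higher, 40.3% lower and 60.3% either. The P6- high cells held 0 reads of Tnf, at least 248.7-fold below the low cells by a floor of 3 reads over the group. They held 2 reads of Lta, a ratio of low over high of 504 with a counting interval of 140 to 4167, but in the low cells 79.04% of the Lta reads and 99.8% of the Tnf reads were from 1 cell. For Fasl, 1 cell gave 66.1% of the reads of the high cells, and without the cell with the most reads in each group the log2 ratio was 0.75, within 2-fold. Tnfsf8 was within 2-fold by the mean over cells (-0.84) and after thinning (-0.85), and Cd40lg at Trbv13-2 limits of 1 and 50 reads (0.76 at both) and without limits on cells (0.89). The median of the 7 was 0.63, with or without Tnf at its bound, beside -0.45 over all genes.

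Ligands were rarely detected together in P6+ cells. At 100 reads, 25 of 32 P6+ cells held 1 ligand, 2 held none, 3 held 2 ligands and 2 held 3 ligands. All 5 cells with more than 1 ligand were Trbv13-2 low, and of the high cells 15 held 1 ligand and 1 held none. The 15 were 14 cells with Ltb and 1 cell with Lta. Of P6- cells, 31 held none, 64 held 1, 29 held 2, 4 held 3 and 1 held 4. The split by Trbv13-2 was not seen at 10 reads: 3 of 16 high cells held 2 ligands, beside 3 of 16 low cells with 2 and 2 with 3. At 100 reads, Tnfsf8 and Ltb occurred together in 3 of 32 P6+ cells, where 5 held Tnfsf8 alone of the pair, 21 held Ltb alone and 3 held neither. In the 16 low cells, these counts were 3, 5, 7 and 1. In P6- cells, 17 held both, 22 Tnfsf8, 48 Ltb and 42 neither. One P6+ cell (cell 1, Trbv13-2 low) stood out with 3 ligands, Ltb at 6023 reads, Tnfsf11 at 610 and Lta at 473, and 1708 reads of Foxp3. It also held the 5 Tnf reads. The other cell with 3 ligands (cell 13, Trbv13-2 low) held 4980 reads of Tnfsf8, 3243 of Cd40lg and 3221 of Ltb.

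**Figure D5:**
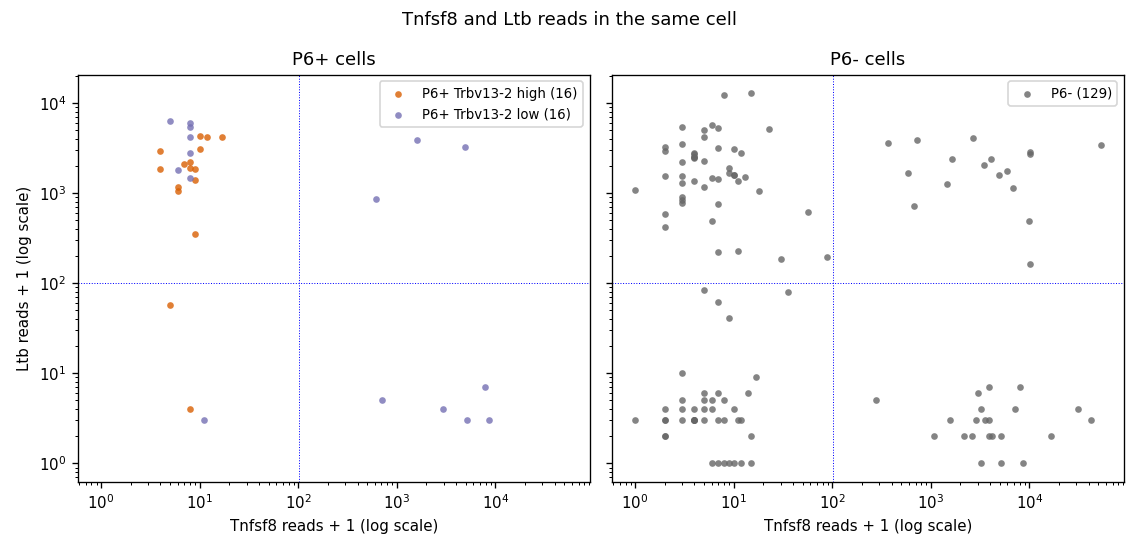
Reads plus 1 of Tnfsf8 (horizontal) and Ltb (vertical) in each cell, both on log axes, for 32 P6+ cells (left, coloured by Trbv13-2) and the passing P6- cells (right), with dotted lines at 100 reads. In P6+ cells 3 points lie in the upper right quadrant, and Trbv13-2 high cells lie to the left of the vertical line.

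Set beside genes that mark CD4 T cell types, Tnfsf8 and Ltb again differed. Foxp3, the factor that defines regulatory T cells, had 10 or more reads in 11 P6+ cells, and 0 of these held Tnfsf8 at 100 reads, which allows up to 27.3%, against 8 of 21 other P6+ cells (38.1%, 18.1 to 61.6%). Of the 11 cells 9 were Trbv13-2 high, so the same cells count in both comparisons. Without Foxp3, 0 of 7 Trbv13-2 high cells and 8 of 14 low cells (57.1%, 28.9 to 82.3%) held Tnfsf8. In P6- cells, 4 of 19 Foxp3 cells (21.1%, 6.05 to 45.6%) and 35 of 110 others (31.8%, 23.3 to 41.4%) held Tnfsf8. Bcl6, the factor of follicular helper T cells, reached 10 reads in 6 P6+ cells, all Trbv13-2 low, and 6 of 6 (100%, 54.1 to 100%) held Tnfsf8, against 2 of the other 10 low cells (20%, 2.52 to 55.6%). In P6- cells, it was 2 of 12 Bcl6 cells (16.7%, 2.09 to 48.4%) and 37 others (31.6%, 23.3 to 40.9%), with the lower share in Bcl6 cells. Both P6+ cells with Cd40lg were among the 6 Bcl6 cells. Ltb was in 9 of 11 Foxp3 cells and 15 of 21 others among P6+, and in 13 of 19 and 52 of 110 among P6- cells. Of Bcl6 cells, 2 of 6 P6+ cells (33.3%, 4.33 to 77.7%) held Ltb, against 22 of 26 others (84.6%, 65.1 to 95.6%), and 8 of 12 P6- cells (66.7%, 34.9 to 90.1%), against 57 others (48.7%, 39.4 to 58.1%). Cd40lg was in 0 of 11 P6+ Foxp3 cells, which allows up to 27.3%, against 2 of 21 others (9.52%, 1.17 to 30.4%). In P6- cells it was in 0 of 19, which allows up to 15.8% (exact interval up to 17.6%), against 18 of 110 others (16.4%, 9.996 to 24.6%). Fasl was in 0 of 19 Foxp3 cells, which allows up to 15.8%, and in 10 of 110 others (9.09%, 4.45 to 16.1%).

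Sums over the marker lists also differed between Trbv13-2 high and low P6+ cells, in a split where 67.5% of all genes passed 2-fold. The 4 regulatory T cell genes (Foxp3, Il2ra, Ikzf2 and Ctla4) summed to 2306 cpm in high and 1094 cpm in low cells, over ranges per cell of 540.8 to 4615 and 2.22 to 3434, with Foxp3 and Il2ra past 2-fold and Ikzf2 and Ctla4 within. The 5 follicular helper genes (Bcl6, Cxcr5, Pdcd1, Il21 and Tcf7) summed to 107.2 and 895.8 cpm, with Il21 at 0, Bcl6, Cxcr5 and Tcf7 lower in high cells and Pdcd1 within 2-fold. The 3 type 1 helper genes summed to 452.5 and 1076 cpm, with Tbx21 higher and Cxcr3 lower in high cells and Ifng under the minimum. Cycling genes (Mki67, Top2a, Ccnb1 and Cdk1) reached 10 reads in 6 of 16 high and 0 of 16 low cells. The 5 B cell genes (Cd79a, Cd79b, Ms4a1, Ighm and Cd22) summed to 1930 cpm in high and 127.3 cpm in low cells, ranging over cells from 1.14 to 7238 and from 0 to 1275. Of these, Ighm gave most (1870 and 96.2 cpm), Cd79b reached 10 reads in 1 cell of each group, and Cd79a, Ms4a1 and Cd22 were under 10 reads in every P6+ cell, Cd79a and Ms4a1 at 0. The part of these genes in the difference of Tnfsf8 was not tested.

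The other 10 ligands of the family were mostly absent. Tnfsf4, Tnfsf12, Tnfsf13, Tnfsf13b, Tnfsf15, Tnfsf18 and Eda had 0 P6+ cells at 10 reads, and Tnfsf10 and Cd70 had 1 each. Tnfsf9 is the ligand of the costimulatory receptor 4-1BB. In the comparison of P6+ with P6- cells it was the 1 gene of the list that passed the minimum of 5 cpm. It was higher, at 127.5 cpm in P6+ cells (3 of 32 at 10 reads, all Trbv13-2 high) and 3.59 cpm in P6- cells (2 cells), where 20.9% of all genes were higher. Cd70, which costimulates through CD27, was at 13.5 cpm in P6+ cells, from 1 Trbv13-2 high cell. Both genes passed, and were higher, against P6- cells of the same prefix, against those of the same lane and in the split of P6+ cells. There 52.7%, 27.7% and 34.5% of all genes were higher.

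A list of 10 genes held receptors for the 8 members and Btla, which binds the receptor Tnfrsf14 and none of the 8. In the comparison of P6+ with P6- cells, 7 passed the minimum. Of these, 3 were higher (Tnfrsf14, Cd40 and Tnfrsf1a), 1 lower (Btla) and 3 within 2-fold (median log2 ratio 0.87, beside -0.18). Of all genes, 20.9% were higher and 32.6% lower. Against the 11 P6- cells of the same prefix, 6 of 7 were higher, Btla among them, and Tnfrsf8 was lower, beside 52.7% and 21.5% of all genes. Tnfrsf1b, the TNF receptor of activated and regulatory T cells, was detected most widely, with 10 reads in 28 P6+ and 45 P6- cells at 1244 and 680 cpm, a ratio within the limit of 2-fold (log2 0.87). Cd40, the receptor of CD40 ligand, was at 54.3 cpm from 1 P6+ cell. Fas, the receptor of Fas ligand, was in 5 P6+ and 16 P6- cells at 86.4 and 95.7 cpm. Tnfrsf8, the receptor of Tnfsf8, was in 1 P6+ and 2 P6- cells, so cells with the ligand far outnumbered cells with its receptor. Ltbr, the receptor of the membrane lymphotoxin, and both receptors of RANKL, Tnfrsf11a and Tnfrsf11b, had 0 reads in all cells.

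Of 17 adaptors and processing enzymes of the family, 16 passed the minimum, with 2 higher in P6+ cells (Fadd, the adaptor of Fas, and Adam10, a sheddase), 5 lower (Traf5, Traf6, Birc2, Birc3 and Casp8) and 9 within 2-fold (median -0.18, beside -0.18), beside 20.9% of all genes higher and 32.6% lower. Against the cells of the same prefix, 9 of 15 were higher, Birc3 and Casp8 among them, and 1 was lower, beside 52.7% and 21.5% of all genes. Adam10 was at 201 and 55.3 cpm, and Birc3, an inhibitor of apoptosis and target of NF-kappaB, at 76.9 and 325 cpm. Of 12 genes induced or used on engagement of the T cell receptor, 6 were lower (Nfatc2, Egr1, Egr2, Nr4a1, Nr4a3 and Jun), none was higher and 6 were within 2-fold, with a median of -1.03, beside 32.6% of all genes lower and 20.9% higher. Nr4a1, an immediate early gene, was at 275 cpm in P6+ (13 cells at 10 reads) and 1018 cpm in P6- cells (50 cells). Nr4a3 was at 4.57 and 159 cpm (2 and 25 cells). Against the 11 cells of the same prefix, 3 of 10 were higher and 2 lower, beside 52.7% and 21.5% of all genes. In the Trbv13-2 split of P6+ cells, 2 of 9 of these were lower in high cells (Nfatc2 and Fos) and none higher, beside 33% and 34.5% of all genes. Of the adaptors and processing enzymes, 7 of 15 were higher in high cells and 4 lower, beside the same shares. Adam10, among the higher, was at 383 cpm in high and 12.9 cpm in low cells.

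Per length, a member's level can be set beside another's. Divided by the length of its exons, Ltb was at 759 cpm per kb in pooled P6+ cells, Tnfsf8 at 144.4, Cd40lg at 45.9, Lta at 19.1 and Tnfsf11 at 4.66, with Fasl at 0.0957 and Tnf at 0.0514. In P6- cells the order was Ltb (504), Tnfsf8 (375), Cd40lg (112.05), Fasl (71.04), Lta (13.1), Tnfsf11 (10.4) and Tnf (8.20). Within cells at 100 reads the medians were closer: Ltb 974 and Tnfsf8 418 cpm per kb in P6+, and 712 and 671 in P6- cells. The levels of Lta, Tnfsf11 and Tnf rested on at most 3 cells at 100 reads in either group, so their order says little, and Fasl and Tnf had no such P6+ cell. Cd40lg in P6+ cells rested on 2 cells, and without the cell with the most reads it was at 2.81 cpm, before division by length, beside 8.47 cpm for Lta.

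Over the 161 cells, the genes most like a member in rank of log2(cpm + 1), among 4046 genes with 10 reads in at least 16 cells, had low correlations. For Tnfsf8 they were Tbc1d4 (Spearman's rho 0.36), Cd44 (0.35) and Tmem115 (0.31). For Ltb they were Lcp2 (0.35), Gzmb (0.33) and Selplg (0.33), and for Cd40lg Oip5os1 (0.29), Utrn (0.28) and Txk (0.27). Tnfsf8 and Ltb had a rho of -0.18. These are descriptions over cells of few prefixes and of sparse counts, and no weight is placed on them.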

How the data were processed

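Single cells were sorted into wells and full-length cDNA was made by Smart-Seq2 with 23 cycles of pre-amplification and no molecular identifiers. The authors checked reads with FastQC 0.11.7, mapped them to GRCm38 with STAR 2.6.0a (gene counts, Ensembl release 92 annotation; SAMtools 0.1.19), replaced identifiers by gene names and deposited raw read counts per gene, neither normalized nor filtered. The strand setting of the counting is not given in the sources used here. The 8 ligands shared 0 exonic bases with other genes of the GENCODE annotation of GRCm38. The table had 53647 rows, with 81 names listed more than once, whose counts were averaged. Groups followed the tetramer labels.

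Cells with at least 500000 reads, 2000 genes and under 10% mitochondrial reads were kept (161 of 176; 15 P6- cells failed). The authors also required a total mapping rate of 75% and kept 97 P6- cells. Mapping rates were not analysed here, and at least 32 of the P6- cells used here lay outside their set. Counts were summed per group and divided by the summed totals (cpm). For log2 ratios 1 cpm was added to each level, which understates changes of low genes, and genes needed 5 cpm over both groups. Intervals are exact at 95%, and those of shares treat each cell as independent. A count of 0 allows 3 reads, or 3 cells in a share, which is somewhat under the exact limit drawn in the figure of shares. No test, p-value or doublet caller was applied, since each group is 1 sample and each well received 1 cell. Pooled ratios were checked on counts simulated with Poisson error around a pooled mean shared by all cells. For P6+ against P6- (9076 genes), 100% of 63 genes changed 2-fold had the right direction, and sizes were recovered less often for larger changes. The simulation held no other spread between cells. It therefore says nothing about ratios that rest on 1 or a few cells. The Trbv13-2 split used 10 reads as its limit. Named genes were the 8 members, Trbv13-2, Foxp3 and the marker lists, the genes past 2-fold in the lists of other ligands, receptors, adaptors and induction genes (others of these lists, such as Tnfrsf1b, Fas and Tnfrsf8, were named after their values were seen), and for each member with 10 reads in at least 16 cells the 3 genes with the highest rho. The members and lists were chosen with earlier results of these data known. Alternatives changed the limits on cells, pooling, depth, normalization (TMM of edgeR 4.0.16 and size factors of DESeq2 1.42.0, on pooled sums only), pseudocount, fold, detection and Trbv13-2 limits, and the P6- cells compared. Python 3.11.15, pandas 2.3.3, scipy 1.17.1 and R 4.3.3 were used. No protein sequence was used here. One or more genes of the marker lists were left out.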

Additional observations from a re-analysis of the deposited data

Results flagged for a closer look

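For 3 ligands the ratio went past 2-fold in opposite directions when P6+ and P6- cells were split by Trbv13-2. Cd40lg had a log2 ratio of high over low cells of -6.62 among P6+ and 1.35 among P6- cells. For Tnfsf11 the ratios were -4.24 and 3.31, and for Lta 1.10 and -4.53. The difference between P6+ and P6- cells was not tested, as each set is 1 sample. Except for Cd40lg in P6- cells, each ratio rested on 1 to 3 cells with 100 or more reads. For Cd40lg, the P6+ ratio was -2.53 without the cell with the most reads in each group, and the P6- ratio was within 2-fold at Trbv13-2 limits of 1 and 50 reads (0.76 at both) and without limits on cells (0.89).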

How the results depend on the processing

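No paired analysis was possible because replicate numbers are only the order of the cells, and each group is 1 sample. The number of ligands past the limit moved by more than 1.5 times in 3 cases: with a 4-fold limit, 2 instead of 5 for P6+ against P6- cells and 3 instead of 6 for the split of P6- cells, and without the cell with the most reads in each group, 2 instead of 4 for the split of P6+ cells. Log2 ratios that turned were, for P6+ over P6- cells, Tnfsf11 with at least 1000000 reads per cell (0.27), and against cells of the same prefix Tnfsf11 (3.26), Cd40lg (2.23) and Tnf (0.12). For the split of P6+ cells they were Lta by the mean over cells (-0.29), after thinning to 500000 reads (-0.22) and without the highest cells (-0.047), and Tnfsf11 at a limit of 1 read of Trbv13-2 (4.15), where cell 1 changed sides. For the split of P6- cells they were Tnfsf11 (-3.74) and Fasl (-6.08) among cells of the same lane, an alternative chosen after seeing the data, with 7 high cells. Ltb, within 2-fold in every setting of both splits, changed sign at a limit of 1 read among P6+ cells (0.22) and in the same lane among P6- cells (-0.094). Tnfsf8 stayed lower in P6+ cells (-1.59 to -1.18) and in Trbv13-2 high P6+ cells (-8.15 to -6.35), and Fasl in P6+ cells (-8.92 to -3.86), in all 13 settings, although 1 cell gave 99.8% of the Fasl reads of the P6- cells of the same prefix, where without the highest cell of each group P6+ cells were not lower (0.156 and 0.0695 cpm). DESeq2 size factors shifted the median of all genes in the split of P6- cells from -0.45 to -0.33. The causes were not tested. For a ligand found in 0 of 32 cells, the number of cells allows a share of up to 9.38% (exact interval up to 10.9%).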
